A study of Homo sapiens and Mus musculus with 66 samples.

Results

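The windows described here are the 100 kb windows of the hg19 genome whose midpoint lies within 8 Mb of the centre of the centromere on 17 human autosomes, namely chromosomes 1 to 12 and 16 to 20. Of 2720 such windows, 743 lay mostly in gaps of the assembly and were left out, which leaves 1977 of the 30970 windows that make up the autosomes and both sex chromosomes. The other 21565 windows with sequence on the same 17 chromosomes, called the rest below, served for comparison. Lamin-B1 cTSA-seq labels chromatin close to lamin-B1, a protein of the nuclear lamina, with biotin, and sequences what streptavidin pulls down next to its input. HCT116, a human colorectal cancer cell line, was measured as an asynchronous bulk culture and at 1000000, 200000 and 50000 cells, and after fixation and sorting by DNA content as G1, S and G2 cells. It was also measured in sorted G1 cells 90 and 180 minutes after release from a nocodazole block, for which the labels give 16 h and the Methods a longer time (90m G1 and 180m G1). K562, a human leukemia cell line, was measured as an asynchronous bulk culture. No line carried an engineered allele, and apart from the nocodazole block no treatment was given. By the labels, bulk, K562 and each sorted stage had 2 replicates of an input and a pull-down library. The lists for 200000 and 50000 cells had 2 pull-downs and 1 input, and the list for 1000000 cells had 1 of each.

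For each condition 1 list of called regions was deposited, already merged over replicates and without signal or read counts. For the list from 1000000 cells this is unclear, since it is named a consensus list but the labels give it 1 pull-down and 1 input. A window inside such a region is referred to as called. The depth behind a call is therefore unknown, the spread between replicates cannot be given, and no comparison between lists or between groups of windows could be tested. Every difference below is a description of the deposited lists.

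Centromeres are the sites at which spindle fibres attach to chromosomes in mitosis, and in human cells they consist of long arrays of alpha satellite, a tandem repeat whose unit is about as long as the stretches printed next. Some of its units carry the CENP-B box, the binding site of the centromere protein CENP-B. The arrays are flanked by pericentromeric heterochromatin, which holds other satellites and recently duplicated segments and is compact and poor in genes. Heterochromatin of this kind is often found at the nuclear periphery or around nucleoli, and the contacts are lost in mitosis and formed again as the lamina assembles in G1.

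The sequence at the inner border of the windows shows what the assembly holds there. On each arm the innermost window with sequence was in neither of the K562 and HCT116 bulk lists, in 1 of them or in both, and the bases next to the gap are given for the first arm in karyotype order of 3 of these kinds. The arm 1p (chr1:121485264-121485434) stands for arms with a call in neither of them, 2p (chr2:92326001-92326171) for a call in K562 alone of these and 5p (chr5:46405471-46405641) for a call in K562 and in HCT116 bulk, all read on the plus strand of hg19. Capitals mark the core of the CENP-B box (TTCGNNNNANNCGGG) on 1p and 2p.
1p: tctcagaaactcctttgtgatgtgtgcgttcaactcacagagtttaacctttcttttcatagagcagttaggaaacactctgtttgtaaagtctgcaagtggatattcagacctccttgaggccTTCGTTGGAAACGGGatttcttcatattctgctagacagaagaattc
2p: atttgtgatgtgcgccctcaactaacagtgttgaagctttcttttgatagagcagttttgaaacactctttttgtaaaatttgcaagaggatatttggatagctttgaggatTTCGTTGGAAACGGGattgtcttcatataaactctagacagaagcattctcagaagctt
5p: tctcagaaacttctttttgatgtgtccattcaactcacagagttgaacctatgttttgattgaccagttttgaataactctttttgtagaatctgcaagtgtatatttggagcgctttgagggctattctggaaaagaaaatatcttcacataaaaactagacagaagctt
The stretches on 1p and 2p each held 1 match to the core, and the stretch on 5p held none. On 1p the stretch lay within the innermost window, whereas on 2p and 5p it lay 26 kb and 5.47 kb beyond the window's inner end, in a window that is mostly gap.

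Called windows were nearly absent around centromeres in 90m G1. Pooled over chromosomes, they were slightly more frequent around centromeres than in the rest in the lists of sorted G1, S and G2 cells. In 90m G1, 3 of the 1977 windows (0.152%) were called, against 20.8% of the rest, where the share over all 23542 windows was 19.1%. In 180m G1 the share near centromeres was 18.1% against 22.3% in the rest (all windows, 21.9%). In G1 it was 26.0% against 19.96% (all windows, 20.5%), in S 26.2% against 22.7% (23%) and in G2 24.5% against 20.2% (20.5%). The early G1 lists thus had a lower share near centromeres than in the rest, and the lists of sorted G1, S and G2 cells had a higher one.

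In HCT116 bulk, 34.5% of the windows near centromeres and 27.4% of the rest were called (28.0% of all windows). The lists made from 1000000, 200000 and 50000 cells gave 32.7%, 32.6% and 33.5% near centromeres, whereas the shares of all windows were 20.9%, 22.1% and 22.8%. All 4 lists of unsorted HCT116 cells had a higher share near centromeres than in the rest. The K562 list had the opposite order, with 40.4% near centromeres and 43.3% in the rest (43.1% of all windows). The TSA-seq list for K562, which the authors made from published data, gave 28.6% against 37.6% (36.9% of all windows). Regions that the authors list as depleted in K562 by both methods held 20.8% of the windows near centromeres and 22.6% of the rest (22.4% of all).

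The pooled shares hide a split among chromosomes. In the G1, S and G2 lists the share near centromeres was higher than in the rest on the same 6 chromosomes, which were 3, 4, 6, 7, 16 and 19, and lower on the other 11. The median over chromosomes of the difference was -4.44 percentage points in G1, -6.29 in S and -2.82 in G2, of opposite sign to the pooled differences of 6.09, 3.41 and 4.30. In HCT116 bulk the share was higher on 9 of 17 chromosomes (median difference 2.50 points) and in K562 on 7 of 17 (median -4.73). In 90m G1 it was lower on 16 chromosomes and equal, at no call at all, on chromosome 19.

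**Figure D1:**
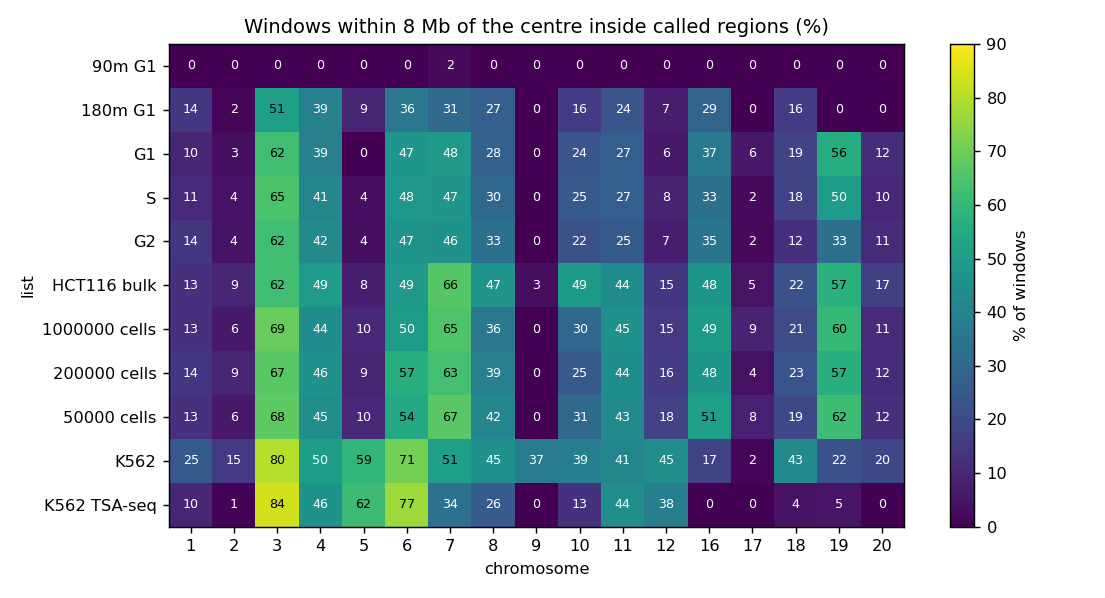
Percent of windows within 8 Mb of the centromere centre that were called, by list (vertical axis) and chromosome (horizontal axis), with the percent printed in each cell and coded by colour. Chromosome 3 is high in all lists but 90m G1, chromosomes 5 and 12 are high in K562 and low in HCT116, and chromosome 19 is at 0 in 90m and 180m G1 and at 56% in G1.

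Chromosome 3 had the highest share in 180m G1 (50.8%), G1 (62.3%), S (64.6%), G2 (62.3%) and K562 (80%), and chromosome 7 had it in HCT116 bulk (66.2%). The lowest shares were 0% on chromosome 9 in S and G2, on chromosomes 5 and 9 in G1 and on chromosomes 9, 17, 19 and 20 in 180m G1, 3.33% on chromosome 9 in HCT116 bulk, and 1.55% on chromosome 17 in K562. On chromosome 17 the depleted K562 regions held 92.2% of the windows near the centromere. Chromosome 9 entered with 60 windows of its short arm alone, since its gap spans 18.2 Mb, and only 9.81% of sequences of 50 bases sampled there occurred once in the genome. In K562 36.7% of these chromosome 9 windows were called and in the TSA-seq list none, and the part of repeated sequence in this was not tested.

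The share of called windows depended on distance from the centre, and in different ways in sorted and unsorted cells. Within 2 Mb of the centre, where 142 windows had sequence, no window was called in 90m G1 and 2.11% in 180m G1. The G1 list held 9.86% of them, the S list 9.15% and the G2 list 7.04%. In unsorted HCT116 cells the shares were 50.0% in bulk and 57.7%, 52.8% and 66.2% in the lists from 1000000, 200000 and 50000 cells. K562 was at 65.5%, and its TSA-seq list at 40.8%. The 5 lists of sorted cells were all below 10%, and the 6 lists of unsorted cells were all above 40%.

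**Figure D2:**
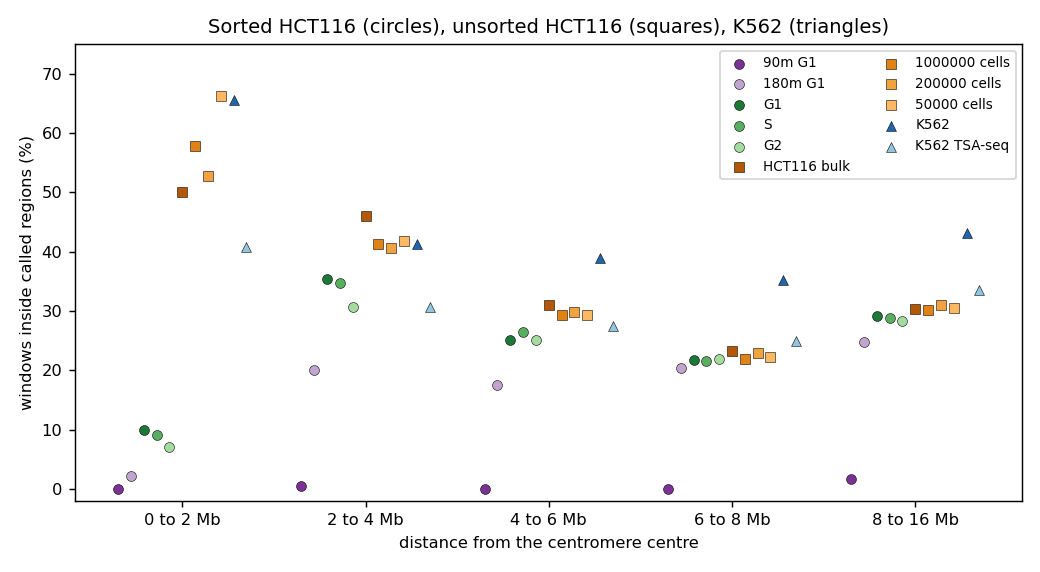
Percent of windows called (vertical axis) by distance from the centromere centre (horizontal axis) for sorted HCT116 stages (circles), unsorted HCT116 lists (squares) and K562 cTSA-seq and TSA-seq (triangles), 1 point per list. Within 2 Mb the circles reach at most 9.86% and the squares start at 50.0%, and at 6 to 8 Mb circles other than 90m G1 lie between 20.4% and 21.8% and squares between 21.8% and 23.3%.

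The gap between sorted and unsorted HCT116 cells narrowed with distance. From 2 to 4 Mb (600 windows), the shares were 35.3% in G1, 34.7% in S and 30.7% in G2 against 40.7 to 46.0% in the 4 unsorted lists. At 4 to 6 Mb (617 windows) G1, S and G2 were at 25.1%, 26.4% and 25.1% and the unsorted lists between 29.3% and 31.0%. At 6 to 8 Mb (618 windows) the ranges met, at 21.5 to 21.8% and 21.8 to 23.3%. From 8 to 16 Mb, outside the windows described here, G1, S and G2 stood at 28.3 to 29.1% and the unsorted lists at 30.1 to 31.0%. Sorted cells had been stained with a DNA dye and sorted after fixation. Bulk cells were asynchronous and unsorted. Their share lay above those of G1, S and G2 at each of these distances, and also over all windows (28.0% against 20.5%, 23% and 20.5%). The part of staining and sorting in this difference was not tested.

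Between G1 and HCT116 bulk the difference was largest in the first 0.5 Mb beside the gap, and it was smaller but still present from 0.5 to 1 Mb. Counted from the gap's edge, 11.3% of the 150 windows within 0.5 Mb were called in G1, and 34.2% of the 146 windows from 0.5 to 1 Mb. In HCT116 bulk the shares of the same windows were 51.3% and 53.4%, and in K562 64.7% and 52.7%. Of the innermost window on each of 31 arms with sequence, 0 were called in any of the 5 lists of sorted cells. In HCT116 bulk 11 were called, in the lists from 1000000, 200000 and 50000 cells 17, 12 and 20, in K562 20 and in the TSA-seq list 14. No sequence lay within 8 Mb on the long arms of chromosomes 1, 9 and 16.

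Windows called in all 4 unsorted HCT116 lists and in none of G1, S and G2 numbered 83, or 4.20% of the windows near centromeres, against 38 windows, or 0.176%, in the rest. Of the 83, 43 lay within 2 Mb of the centre, on 14 arms, and 33 of these 43 were also called in K562. The reverse kind, shared by G1, S and G2 and in no unsorted HCT116 list, had 0 windows near centromeres and 0 in the rest. Every window shared by G1, S and G2, 448 near centromeres and 3877 in the rest, was thus called in at least 1 unsorted HCT116 list.

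Repeated sequence increased toward the centre along with this pattern. Of sequences of 50 bases sampled every 500 bases, 73.1% occurred once in the genome within 2 Mb of the centre, 82.6% at 2 to 4 Mb, 85.7% at 4 to 6 Mb, 86.8% at 6 to 8 Mb and 92.3% in the rest. Among the 39 windows within 2 Mb in which at least 90% of sampled sequences were unique, 7.69% were called in G1, 5.13% in S and 12.8% in G2. In the same 39 windows, 59.0% were called in HCT116 bulk, 53.8% from 1000000 cells, 56.4% from 200000 cells, 69.2% from 50000 cells and 61.5% in K562. The part of repeated sequence in the difference between sorted and unsorted lists was not tested. The restriction to these windows was chosen after the data had been examined.

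**Figure D3:**
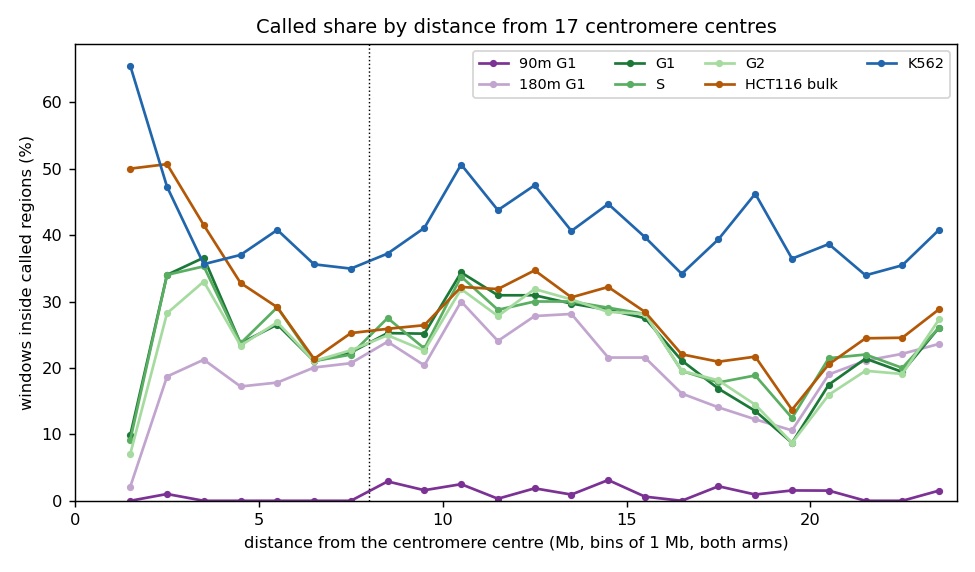
Percent of windows called (vertical axis) in bins of 1 Mb of distance from the centromere centre (horizontal axis, up to 24 Mb; the dotted line marks 8 Mb) in 7 lists, 1 line per list. The line of 90m G1 stays below 4%, K562 starts at 65.5% and HCT116 bulk at 50.0%, and G1, S and G2 start below 10%.

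The scarcity of calls in 90m G1 reached well beyond 8 Mb. The share was 1.73% from 8 to 16 Mb, 0.965% from 16 to 24 Mb, 6.03% from 24 to 32 Mb, 9.64% from 32 to 40 Mb and 34.5% farther away. Over the same distances the G1 list varied between 16.8% and 29.1% with no such rise. On 27 arms with any 90m G1 call, the call nearest to the centre lay at a median of 30.8 Mb, against 4.65 Mb over 29 arms in 180m G1 and 2.95 Mb over 31 arms in G1. On 21 arms the nearest 90m G1 call was over 20 Mb away, and 4 arms had none, namely 18p, 19p, 19q and 20p. Next to a call on 7p, described below, the nearest calls on other arms were at 8.15 Mb on chromosome 11 and at 8.35 Mb on chromosome 7.

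The 3 windows called in 90m G1 formed 1 stretch on 7p, from 56800001 to 57100000, at 2.55 Mb from the centre. It held no whole protein-coding gene, its GC content was 49.5%, and 30.0% of its sampled sequences were unique, against 84.2% over all windows near centromeres. These 3 windows were also called in G1, S and G2 but not in 180m G1.

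At 180 minutes, calls near centromeres had appeared on 19 of 31 arms, and in G1, S and G2 on 25 each. Of 448 windows near centromeres shared by G1, S and G2, 323 (72.1%) were also called in 180m G1, against 89.5% of 3877 such windows in the rest. In 90m G1 the shares were 0.670% and 38.1%. Pooled over chromosomes, the share already called in 180m G1 rose with distance up to 8 Mb. It was 2 of 7 windows within 2 Mb, 61.5% of 179 at 2 to 4 Mb and 74.1% of 135 at 4 to 6 Mb. At 6 to 8 Mb it was 87.4% of 127, and at 8 to 16 Mb 83.6% of 675. The 448 windows include 42 on chromosome 19 and 12 on chromosome 20, none of them called in 180m G1. The pooled shares and their order by distance were not recomputed without these chromosomes. The distance trend was not tested.

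Chromosomes differed in how far their windows were called at 180 minutes. On chromosome 4, 47 of 50 windows shared by G1, S and G2 were called in 180m G1. The counts were 66 of 78 for chromosome 3, 46 of 60 for chromosome 6 and 40 of 59 for chromosome 7. On chromosome 19 it was 0 of 42, on chromosome 20 0 of 12 and on chromosome 17 0 of 3. The 180m G1 and 90m G1 lists had no call anywhere on chromosome 19. In G1, 55.8% of its windows near the centromere were called and 6.73% of its other windows.

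Most windows near centromeres were called at no sorted stage. Of 1977 windows, 1410 (71.3%) were in none of these 5 lists, 323 (16.3%) in all but 90m G1, 122 (6.17%) in G1, S and G2 alone and 36 (1.82%) in G1 and S alone. Windows called in 180m G1 and in none of G1, S and G2 were rare near centromeres, with 10 windows (0.506%), against 654 (3.03%) in the rest. Of the 7 lists 973 windows (49.2%) were in none, against 40.2% of the rest, and 278 (14.1%) were in all but 90m G1, against 14.1% of the rest.

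**Figure D4:**
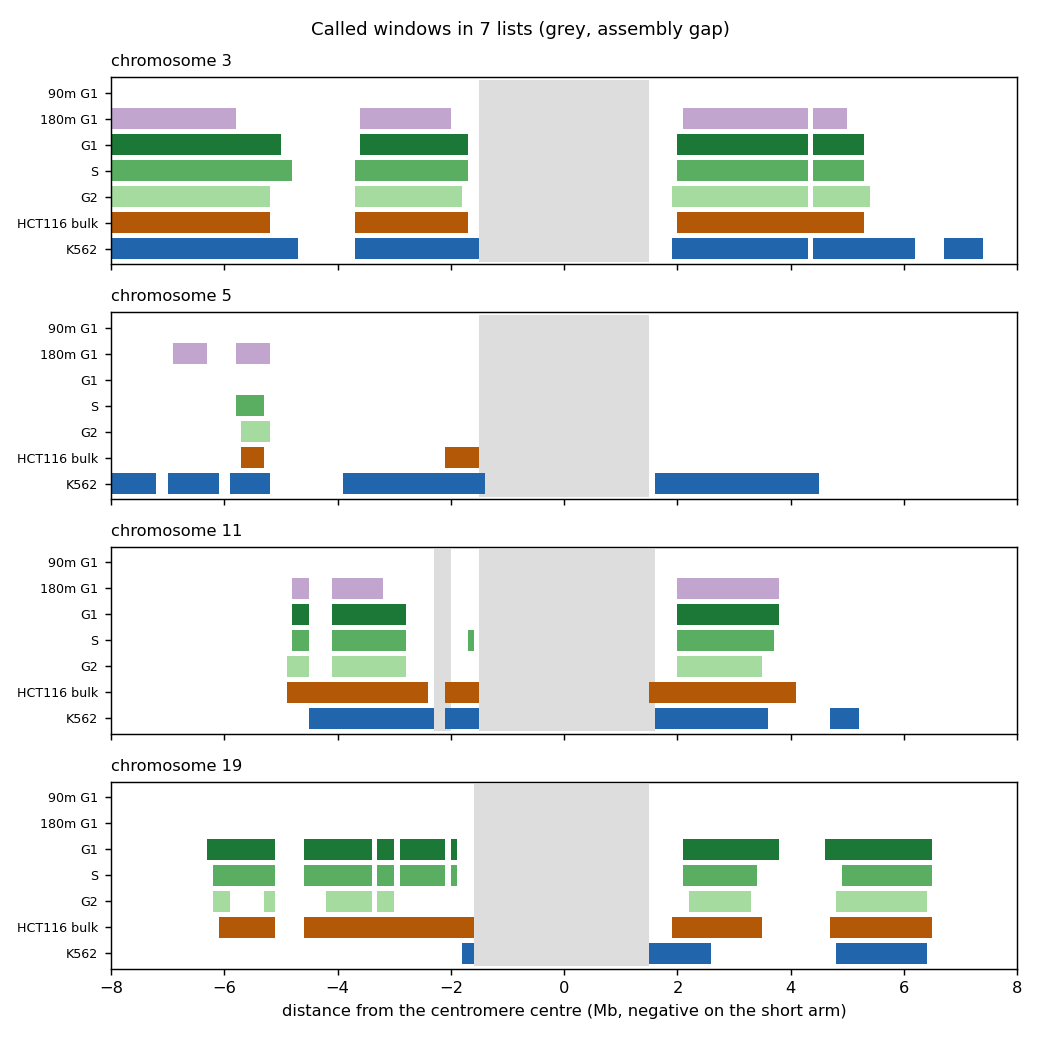
Called windows (coloured blocks) of 7 lists, 1 row per list, along chromosomes 3, 5, 11 and 19 by distance from the centromere centre in Mb (horizontal axis, negative on the short arm), with assembly gaps in grey. Chromosome 3 has blocks at the same places in 6 lists, chromosome 5 has long blocks in K562 alone, and chromosome 19 has blocks in G1, S, G2 and HCT116 bulk and none in 90m and 180m G1.

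The longest unbroken stretches of called windows recurred between lists. A stretch on 4p starting at 43200001 measured 4.1 Mb in 180m G1 and S, 4 Mb in G2, 3.9 Mb in HCT116 bulk and 4.6 Mb in K562, and it held GABRA2, GABRG1 and GABRA4, which encode subunits of the GABA-A receptor, a chloride channel of inhibitory synapses. A stretch on 6q from 64600001 to 68300000 (3.7 Mb) was called in 180m G1, G1, S, G2 and HCT116 bulk, and EYS, a gene of photoreceptors, reached into it. On 3p a stretch from 84000001 measured 3 Mb in G1, 3.2 Mb in S and 3.3 Mb in K562 and held CADM2, which encodes a synaptic adhesion molecule. On 7p a stretch from 51600001 measured 3 Mb in G1, 3.1 Mb in G2 and 3.7 Mb in K562. In K562 it extended over EGFR, the receptor for epidermal growth factor. These 4 stretches reach the outer limit of 8 Mb, and their continuation was not counted.

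On 8q, a stretch from 49900001 measured 2.9 Mb in 180m G1 and 3.4 Mb in HCT116 bulk and held SNTG1, a syntrophin gene. In HCT116 bulk it too ended at the limit of 8 Mb, at 53300000, whereas in 180m G1 it ended before it, at 52800000. Over the 6 lists other than 90m G1, 23 stretches were called in all, and the 5 longest lay on 6q (3.1 Mb), 7p (2.8 Mb), 8q (2.5 Mb), 4p (2.3 Mb) and 3p (2.2 Mb). Their GC content ranged from 34.5% to 37.1%. Stretches numbered 31 in 180m G1 with a median of 0.7 Mb, 51 in G1 and in S with 0.7 Mb, 50 in G2 with 0.65 Mb, 51 in HCT116 bulk with 0.8 Mb and 61 in K562 with 1.1 Mb.

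K562 and HCT116 bulk shared 489 windows near centromeres (24.7%), 310 (15.7%) were called in K562 and not in HCT116 bulk, 193 (9.76%) in HCT116 bulk and not in K562, and 985 (49.8%) in neither. In the rest, the share called in both was 19.5% and that in K562 and not in HCT116 bulk 23.8%. Of the 489 shared windows 71.4% were also in the K562 TSA-seq list. Of the 310 windows in K562 and not in HCT116 bulk, 57.1% were, against 81.2% of the corresponding windows in the rest, and of the 193 in HCT116 bulk and not in K562, 9.84% were. The G1 list held 79.3% of the shared windows, 58.5% of those in HCT116 bulk alone and 1.61% of those in K562 alone.

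The cell lines differed most by chromosome. K562 had a higher share near the centromere than HCT116 bulk for chromosome 5 (59.2% against 7.69%), for chromosome 9 (36.7% against 3.33%) and for chromosome 12 (44.6% against 14.6%). HCT116 bulk had the higher share on chromosome 19 (57.4% against 22.5%) and on chromosome 16 (47.6% against 17.5%). The order of the cell lines was the same in the rest of each of these chromosomes. There K562 and HCT116 bulk had 54.6% and 32.8% on chromosome 5, 35.0% and 34.6% on chromosome 9, and 32.7% and 17.8% on chromosome 12. On chromosome 19 they had 0% and 6.50%, and on chromosome 16 27.4% and 41.9%. On 12q the shares were 70.8% in K562 and 6.15% in HCT116 bulk, and on 19p 3.12% and 62.5%. The K562 TSA-seq list gave 61.5% for chromosome 5, 38.5% for chromosome 12, 4.65% for chromosome 19 and 0% for chromosome 16, which is the same order of the cell lines on these 4 chromosomes. For chromosome 9 it gave 0%.

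Arms of 1 chromosome could differ as much as chromosomes did. In G1, 85.9% of the windows on 6q and 9.23% of those on 6p were called, and 60.3% on 4p against 18.5% on 4q. In contrast 19p and 19q were close in G1, at 56.2% and 55.4%, and apart in K562, at 3.12% and 41.5%. Arms 2q, 5q, 9p, 12q and 20q had 0% in all lists of sorted cells. Within 2 Mb the short arms had higher shares than the long arms, with 17.1% of 76 windows against 1.52% of 66 in G1, 59.2% against 39.4% in HCT116 bulk and 75% against 54.5% in K562. The K562 TSA-seq list had 38.2% against 43.9%.

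Called windows near centromeres were lower in GC and poorer in genes than those not called. In G1 the GC content averaged 38.5% in called and 41.8% in other windows, and protein-coding genes numbered 2.70 and 8.60 per Mb. In K562 the GC contents were 38.0% and 42.9%, and the gene densities 2.53 and 10.1 per Mb. Over all windows near centromeres GC content was 40.9%, and in the rest 41.0%, with 7.07 and 7.23 genes per Mb. The difference between windows near centromeres and the rest depended on GC content. Among windows with a GC content under 37%, 54.3% of 442 near centromeres and 29.8% of 5061 in the rest were called in G1, and 59.95% and 31.1% in HCT116 bulk, whereas K562 had 81.9% and 80.4%. In 180m G1 they were 50.7% and 36.0%, the opposite direction to its shares over all windows. From 37 to 39% GC (325 and 4217 windows) the shares near centromeres and in the rest were 20.9% and 32.8% in 180m G1, 24.6% and 26.2% in G1, 38.5% and 30.8% in HCT116 bulk, and 58.8% and 60.3% in K562. From 39 to 42% GC the shares in 180m G1 were 9.36% and 20.8%, in G1 18.9% and 18.9%, and in K562 32.3% and 38.4%. Above 42% GC (708 and 7407 windows) they were 2.54% and 7.94% in 180m G1, 14.1% and 10.4% in G1, 20.5% and 22.2% in HCT116 bulk, and 11.9% and 11.5% in K562. Of these 4 ranges, 180m G1 had a higher share near centromeres than in the rest only under 37% GC.

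The core of the CENP-B box, as printed above and searched on both strands, was found in 2.89% of all 23542 windows, 4.15% of those near centromeres and 19.7% of those within 2 Mb. Within 2 Mb it matched 590 times in 28 windows. In windows near centromeres called in K562 there were 455 matches in 40 windows, in HCT116 bulk 317 in 31 windows, and in G1 14 in 13 windows. Windows with a match made up 5.01% of those called in K562, 4.55% in HCT116 bulk and 2.52% in G1. The pentamer GGAAT in 2 tandem copies, on either strand, was found in 32.9% of all windows and 31.3% of those near centromeres. Of its 9607 matches near centromeres 9041 lay in windows called in HCT116 bulk, 2717 in windows called in K562 and 193 in windows called in G1. The share of called windows with a match was nonetheless alike, at 31.1% in HCT116 bulk, 31.8% in K562 and 30.5% in G1. The numbers of matches to both motifs rest on few windows with long arrays, and chromosomes 4 and 10 held 3736 and 3109 of the pentamer matches. Matches are letters in the assembly and say nothing of protein binding.

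Genes inside called windows were next counted, in the 5 lists of sorted cells, HCT116 bulk and K562 only. A protein-coding gene entered the count once 80% of it or more was within called windows. Near centromeres there were 1399 of 17005 genes. None was counted in 90m G1, against 17.9% of all genes. The shares were 7.08% in 180m G1 (all genes, 5.03%), 9.51% in G1 (4.32%), 9.72% in S (4.91%), 8.58% in G2 (4.06%), 13.8% in HCT116 bulk (10.6%) and 14.0% in K562 (10.8%). Clustered families made up most of the genes counted in the sorted lists. Of the 133 genes in G1, 56 were olfactory receptors, 34 zinc finger genes and 3 GABA-A receptor subunits. Genes of a cluster share windows, so that they are not separate observations.

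**Figure D5:**
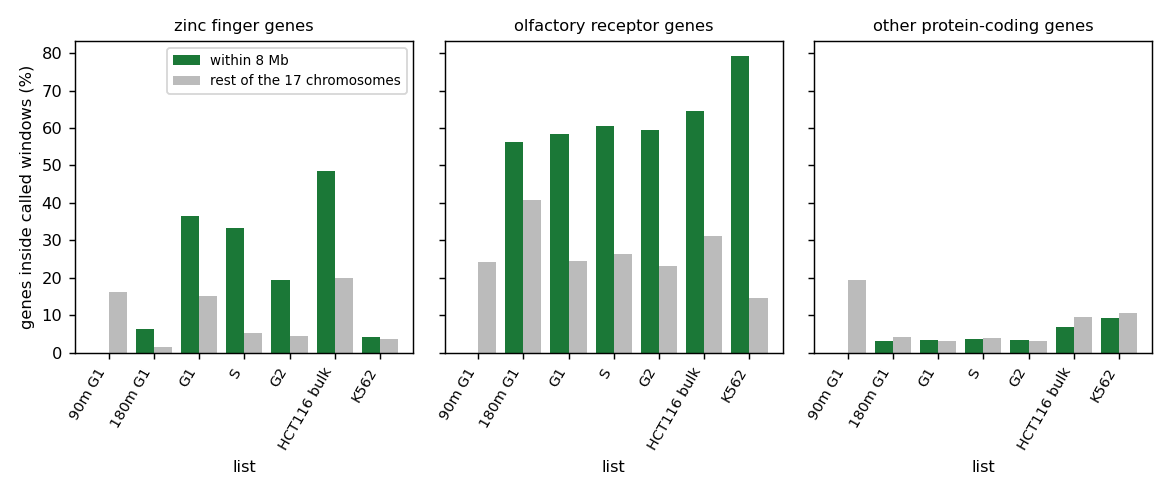
Percent of genes with at least 80% of their length in called windows (vertical axis) in 7 lists, for genes within 8 Mb of a centromere centre (green) and in the rest of the 17 chromosomes (grey), for zinc finger genes, olfactory receptors and genes of none of the 4 families counted. Near centromeres olfactory receptors range from 56.2% to 79.2% outside 90m G1, zinc finger genes from 4.30% to 48.4%, and other genes from 3.01% to 9.27%.

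Olfactory receptor genes encode the odorant receptors of the nose and are silent in most tissues. Of 96 near centromeres, 54 were counted in 180m G1 (56.2%), 56 in G1, 58 in S, 57 in G2, 62 in HCT116 bulk and 76 in K562 (79.2%). In the rest, of 282, the shares were 40.8% in 180m G1, 24.5% in G1 and 14.5% in K562. Most lay in the cluster of 71 genes on 11q from 55110677 to 59481318, of which 50 were counted in 180m G1, G1, S and HCT116 bulk, 48 in G2 and 60 in K562. The 12 genes on 3q, from 97783316 to 98217475, were counted in no sorted list and not in HCT116 bulk, and 11 of them were in K562. On 11p, 12 genes were counted in HCT116 bulk, 4 in 180m G1, 6 in G1 and 5 in K562.

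Zinc finger genes, named here by the symbol ZNF, encode DNA-binding proteins, many of which repress transposable elements through a KRAB domain. Of 93 near centromeres 6 were counted in 180m G1 (6.45%), 34 in G1 (36.6%), 31 in S (33.3%), 18 in G2 (19.4%), 45 in HCT116 bulk (48.4%) and 4 in K562 (4.30%). Of the 396 in the rest, 1.52% were counted in 180m G1, 15.2% in G1, 5.30% in S, 4.55% in G2, 19.9% in HCT116 bulk and 3.54% in K562. The cluster of 37 genes on 19p from 19779605 to 24312770 contributed 25 in G1, 23 in S, 12 in G2 and 25 in HCT116 bulk, and none in 180m G1 or K562. The 11 genes on 7q, which include ZNF92, ZNF107 and ZNF138, gave 5 in each of 180m G1, G1, S and G2, 6 in HCT116 bulk and none in K562. On chromosome 10, 4 genes on 10p and 5 of 7 on 10q were counted in HCT116 bulk and none in K562.

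The GABA-A receptor subunits and the beta-defensins, which are antimicrobial peptides, were few. Of the 5 GABA-A receptor genes, GABRA2, GABRA4 and GABRG1 on 4p lay wholly in called windows in all lists but 90m G1. GABRB1 next to them was at 100% in K562 and at 70.3% in 180m G1 and S, 47.2% in G1 and G2 and 24.1% in HCT116 bulk. GABRR3 on 3q was counted in K562 alone. Of 7 beta-defensin genes on 20q 2 were counted in HCT116 bulk and none in the other lists. Among 1198 genes of no such family, the shares near centromeres were 3.01% in 180m G1, 3.34% in G1 and 9.27% in K562, against 4.24%, 3.14% and 10.6% in the rest.

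Of 57 well-known genes near these centromeres, listed with earlier results of these data known, 0 were counted in 90m G1, 8 in 180m G1 (14.0%), 9 in G1 and in S (15.8%), 10 in G2 (17.5%), 11 in HCT116 bulk (19.3%) and 17 in K562 (29.8%). Over all 1399 genes near centromeres the shares were 7.08%, 9.51%, 9.72%, 8.58%, 13.8% and 14.0% for 180m G1, G1, S, G2, HCT116 bulk and K562. CADM2, EPHA3, an ephrin receptor on 3p, and EYS were counted in all lists but 90m G1, with at least 91.4% of their length called. Genes counted in K562 alone included, besides GABRB1, EGFR, the growth factor gene FGF10 and the homeodomain factor gene ISL1 on chromosome 5, LRRK2 and CNTN1 on 12q, and LAMA3 on 18q. Genes counted in HCT116 bulk and not in K562 were the receptor tyrosine kinase genes KIT (100%), PDGFRA (93.4%) and RET (100%), and PAX1 (100%). KIT was also counted in G2, and PAX1 in G1, S and G2. CXCL12, which encodes a chemokine, was at 100% in G1, S, G2, HCT116 bulk and K562 and at 0% in 180m G1.

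Many widely transcribed genes of the list lay outside called windows in all 7 lists, such as PRKDC (8q), which encodes the catalytic subunit of DNA-PK, KAT6A (8p), a histone acetyltransferase gene, NUP160 (11p), NF1 (17q), ROCK1 (18q), CCNE1 (19q), TPX2 (20q) and DNMT3B (20q), each at 0%. ROCK1 and PROS1, the gene for protein S, are also the protein-coding genes nearest to the centre on 18q and 3q, each with its midpoint 1.61 and 1.65 Mb away.

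Over all 31 arms, the nearest protein-coding gene was counted in 0 arms in 90m G1, 5 in 180m G1 (16.1%, against 7.08% of all genes near centromeres), 7 in G1 and in S (22.6%, against 9.51% and 9.72%), 4 in G2 (12.9%, against 8.58%), 14 in HCT116 bulk (45.2%, against 13.8%) and 10 in K562 (32.3%, against 14.0%). EPHA3 on 3p and KHDRBS2 on 6q, which encodes an RNA-binding protein, were counted in all lists but 90m G1. OR4C46 and TRIM48 on chromosome 11 and ZNF716 on 7p were counted in HCT116 bulk and K562 and in no sorted list. EMB on 5q was counted in K562 alone. On 19p, ZNF254 was at 100% in HCT116 bulk, 86.8% in G1 and S, and 0% in G2, 180m G1 and K562.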

How the data were processed

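Per the Methods and the labels, the authors aligned reads to hg19 with Bowtie2 2.3.2, removed duplicates, counted reads in windows with bedtools 2.26.0, computed z-scores of log2 pull-down over input and assigned windows to 1 of 3 states by a Hidden Markov Model. The values deposited by the authors and used here are region starts and ends in bp. Per the Methods, calls were intersected between replicates. The 90m G1 and 180m G1 lists are not named consensus lists. The list from 1000000 cells is named one, but has 1 pull-down and 1 input per the labels. Starts and ends fit windows of 100 kb, except 36 ends that equal chromosome ends. The lists of regions found by both K562 methods and by cTSA-seq alone were not used, and no per-sample column was left over.

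The 17 centres were given with the choice of windows. Windows over 50% N were gaps. Distance was taken from the centre to the window's midpoint. Uniqueness is the share of sequences of 50 bases, sampled every 500 bases on either strand, that occur once in hg19. Genes came from GENCODE release 44 lifted to hg19, and a gene was near when its midpoint lay within 8 Mb. The calculations used Python 3.11.15, numpy 2.4.6, pandas 2.3.3 and matplotlib 3.10.9, and counting and distance were tested on simulated lists and sequences. Depth is unknown, and the alternatives were judged against 95% binomial intervals over windows or genes, which treat neighbouring windows as independent and cover no variation between experiments.

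The members, gene lists and comparisons were chosen with earlier results of these data known. The items named are the 3 longest called stretches of each list, the 5 longest called in the 6 lists other than 90m G1, the protein-coding gene nearest to the centre on each arm, the listed genes, the chromosomes with the highest and lowest share, and the first arm of each kind of innermost window, without chromosome 8. Some genes and 1 sequence that this rule names are not reported here. Other chromosomes, arms and genes were named after their values were seen. Windows with uniqueness of at least 90% within 2 Mb, and the innermost share without chromosomes 1, 9 and 16, were added after the data were examined.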

Additional observations from a re-analysis of the deposited data

Results flagged for a closer look

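The difference between the share called near centromeres and in the rest, in percentage points, had opposite signs between early and later stages of sorted HCT116 cells. It was -20.7 in 90m G1 and -4.24 in 180m G1, and 6.09 in G1, 3.41 in S and 4.30 in G2. The G1, S and G2 values are pooled over chromosomes, of which 6 of 17 had a positive difference in each list. The difference between early and later stages was not tested, since each stage is 1 list. The 90m G1 and 180m G1 lists may also have been merged in another way, as they are not named consensus lists.

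The sign also separated the unsorted lists of both cell lines. It was positive in the 4 HCT116 lists, with 7.05 in bulk, 12.8 from 1000000 cells, 11.5 from 200000 cells and 11.7 from 50000 cells, and negative in K562, with -2.91 for cTSA-seq and -9.05 for TSA-seq. This difference was not tested either.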

How the results depend on the processing

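All values are differences between windows near centromeres and the rest in percentage points. With gap windows kept, the difference turned negative in G1 (-0.782), S (-3.38), G2 (-2.09) and HCT116 bulk (-1.69), and was -8.82 in 180m G1 and -12.9 in K562, since at most 17 of the 743 gap windows near centromeres were called in any list. Within 5 Mb it was -19.7 in 90m G1, 8.38 in G1 and 15.3 in HCT116 bulk, and it turned positive in K562 (0.260), and the cause was not tested. Within 12 Mb it was -1.54 in 180m G1. Measured from the gap's edge, it was -20.0 in 90m G1, 4.09 in HCT116 bulk and -5.46 in K562. With the last 10 Mb of each chromosome end left out of the rest, it was -12.8 in 90m G1, 9.93 in HCT116 bulk and -5.22 in K562. Without chromosomes 1, 9 and 16 it was -19.3 in 90m G1. In windows at least 90% unique it was -21.8 in 90m G1 and -1.91 in 180m G1. With equal weight for each chromosome it was -18.4 in 90m G1 and 4.06 in G1. Other lists in place of HCT116 bulk gave 12.8, 11.5 and 11.7 for 1000000, 200000 and 50000 cells, and the TSA-seq list in place of K562 gave -9.05.

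Leaving out each chromosome in turn gave a range for 90m G1 of -21.5 to -19.8, for 180m G1 of -6.31 to -3.03, for G1 of 3.45 to 8.59, for S of 0.610 to 5.57, for G2 of 1.70 to 6.42, for HCT116 bulk of 4.61 to 9.38 and for K562 of -5.21 to -0.9997. The lowest values of G1, S and G2 were those without chromosome 3, and the lowest of HCT116 bulk that without chromosome 7.

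For windows shared by G1, S and G2, the difference in the share already called was -35.1 within 5 Mb and -25.6 without the last 10 Mb in 90m G1, and -22.5 within 5 Mb and -10.9 within 12 Mb in 180m G1. The other 66 values, among them regions of at least 200 kb, windows without any N and other gene thresholds, stayed within the interval of the value reported. The share within 2 Mb of the centre, for the 7 lists and the 3 lists of other cell numbers, also stayed within it without chromosomes 1, 9 and 16. In windows at least 90% unique this share left the interval in S (5.13%), G2 (12.8%) and HCT116 bulk (59.0%). In the other lists it stayed within it. No paired analysis was possible because each condition has 1 list, merged over replicates where there was more than 1, and no result comes from a test.

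The lists hold no depth, so neither weak signal nor low coverage beside the gaps can be told from the absence of lamina contact. In hg19 the satellite arrays themselves are gaps and were not measured.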
